A study of Mus musculus with 6 samples.

Results

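The genes described here are 40 genes of DNA replication and mitosis, taken as a list and measured in liver of ErbB4-/- mice and of wild-type control mice. They were looked up by symbol, through probe sets assigned to 1 gene only, and 38 of the 40 were measured, among 22180 genes in all. Ccnb1 was not found among those probe sets, and Ccne2 was read only by a probe set that also covers Ints8, so neither is given a value. The study holds 6 whole-transcript arrays, 1 per mouse, 3 ErbB4-/- and 3 control, all of strain C57BL/6J. ErbB4, a cell surface kinase related to the EGF receptor, binds neuregulins among other ligands. Per the labels, the ErbB4-/- mice lack the gene throughout the body except for an ErbB4 transgene in the heart that prevents embryonic death, and were crossed back to C57BL/6J. The control mice are wild type and are not stated to carry the transgene, so effects of losing ErbB4 and of carrying the transgene cannot be told apart. All 6 mice, controls included, received 1 dose of DEN on postnatal day 14, an abbreviation that in liver research stands for the carcinogen diethylnitrosamine. The treatment protocol gives 32 weeks to dissection for every mouse. The treatment characteristic instead gives 35, 36 and 37 weeks for ErbB4-/- replicates 1 to 3 and 32, 33 and 34 weeks for control replicates 1 to 3. If those weeks are right, age and genotype cannot be told apart. Whether the tissue held tumour, and the sex of the mice, are not given in the labels.

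Adult liver is a quiescent organ: most hepatocytes rest outside the cell cycle and re-enter it after injury, partial removal of the organ or carcinogen exposure. Cells that commit to division raise replication genes first, largely through E2F factors, and mitosis genes later, largely through the MuvB complex with B-MYB and FOXM1. In bulk tissue the transcripts of both sets are read as a mark of how many cells are cycling. In such tissue fewer cycling cells and less RNA per cycling cell cannot be told apart.

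The 2 waves leave different letters in the promoters, shown here for 4 of the genes to make the 2 kinds of control visible. They are the S-phase and mitosis genes of smallest unadjusted p that hold the letters and have an entry among the RefSeq promoters of GRCm38.p6, which held 33 of the 40. Each sequence is the 250 bases before the start site, read along the gene's strand. Mcm5 lies on the plus strand at chr8:75109259-75109508 and Mcm6 on the minus strand at chr1:128359706-128359955. Mki67 lies on the minus strand at chr7:135716380-135716629 and Top2a on the minus strand at chr11:99024190-99024439. Capitals mark E2F letters in the first pair of genes. In the second pair they mark the cell cycle genes homology region, or CHR, and the CCAAT box. The CCAAT box also stands in both genes of the first pair, where it is left unmarked, so it is not particular to the mitosis genes.
Mcm5: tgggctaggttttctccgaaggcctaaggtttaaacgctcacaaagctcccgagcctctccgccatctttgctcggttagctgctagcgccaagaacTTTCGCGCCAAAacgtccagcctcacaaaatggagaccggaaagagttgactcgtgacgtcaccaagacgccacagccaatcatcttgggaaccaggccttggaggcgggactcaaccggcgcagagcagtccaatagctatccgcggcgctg
Mcm6: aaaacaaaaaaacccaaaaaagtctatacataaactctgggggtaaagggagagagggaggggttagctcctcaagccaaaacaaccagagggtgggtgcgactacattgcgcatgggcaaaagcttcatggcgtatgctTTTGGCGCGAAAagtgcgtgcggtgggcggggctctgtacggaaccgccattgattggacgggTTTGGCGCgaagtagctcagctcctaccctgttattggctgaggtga
Mki67: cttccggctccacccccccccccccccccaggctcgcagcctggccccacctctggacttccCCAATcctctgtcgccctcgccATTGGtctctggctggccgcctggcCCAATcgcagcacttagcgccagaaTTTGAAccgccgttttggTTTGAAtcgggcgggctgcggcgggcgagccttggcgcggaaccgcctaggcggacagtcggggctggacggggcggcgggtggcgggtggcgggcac
Top2a: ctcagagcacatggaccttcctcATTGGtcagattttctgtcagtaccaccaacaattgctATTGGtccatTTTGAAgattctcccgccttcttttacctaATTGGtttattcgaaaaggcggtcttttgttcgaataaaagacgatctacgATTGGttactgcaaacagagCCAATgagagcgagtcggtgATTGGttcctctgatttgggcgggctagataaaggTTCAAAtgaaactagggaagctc
The E2F letters of Mcm5 begin 153 and 149 bases before the start site and overlap. In Mcm6 they begin 110 and 106 bases before it, where they overlap, and again at 47 bases. Mki67 has the CHR letters 116 and 98 bases before the start and the nearest CCAAT box at 141 bases. Top2a has a CHR match 23 bases before the start, with CCAAT boxes at 58 and 78 bases.

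The letters searched were TTTGAA for CHR, CCAAT, and TTTGGCGC, TTTCGCGC, TTTCCCGC or TTCCCGCC for E2F, on both strands, in the window of 250 bases before to 50 after the start. E2F strings can overlap each other. E2F letters were found in 4 of 10 S-phase genes with a promoter entry, or 40%, in 1 of 23 mitosis genes, or 4.35%, and in 4.0% of all 27025 genes. CHR letters were found in 15 of 23 mitosis genes, or 65.2%, in 1 of 10 S-phase genes and in 20.2% of all genes. CCAAT was found in 19 of 23 mitosis genes, in 7 of 10 S-phase genes and in 41.1% of all genes. These matches describe the letters only and say nothing of binding in these livers.

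**Figure D1:**
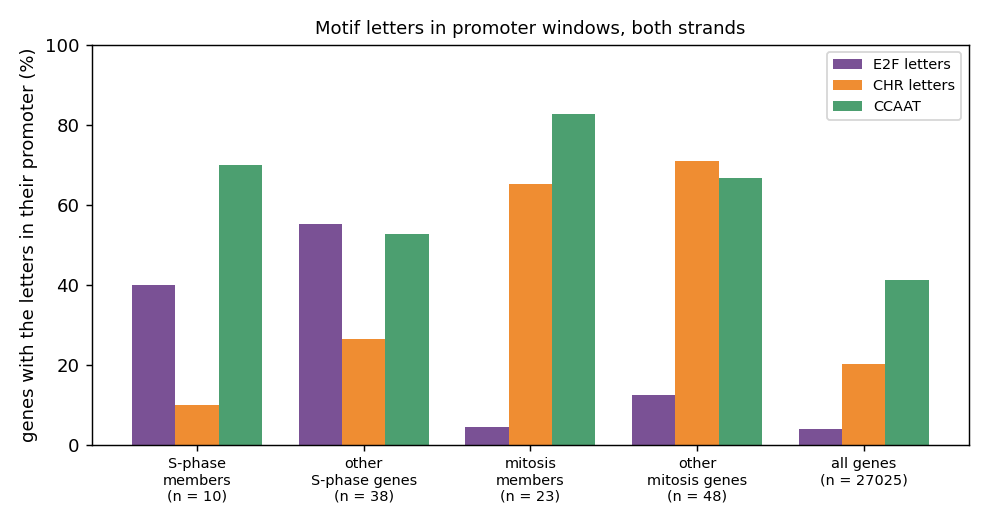
Share of genes, in percent, whose promoter window holds the E2F letters (purple), CHR letters (orange) or CCAAT (green), for S-phase and mitosis genes described here, for other genes of both phases, and for all genes. E2F letters stand at 40% in S-phase genes and 4.35% in mitosis genes, CHR letters at 10% and 65.2%.

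The tissue labels were checked first. All 10 hepatocyte markers lay far above the level of nasal receptor genes that is used below as a background, with albumin (Alb) at 14.31 to 14.33 in ErbB4-/- and 14.33 to 14.37 in control liver. Correlations between arrays ranged from 0.975 to 0.986 across 41345 probe sets. Y-linked Kdm5d measured 7.02 to 7.05 in ErbB4-/- and 6.91 to 7.07 in control liver. Xist, a transcript of female cells, measured 3.51 to 3.60 and 3.32 to 3.54, below the nasal receptor level on every array. By these 2 genes all 6 mice read as male. Control replicate 1 nevertheless stood apart in sex-biased liver genes, such as Hsd3b5 with 2.52 there and 8.70 to 9.88 on the other 5 arrays. ErbB4-/- replicate 3 had the lowest values of the endothelial and macrophage lists. Results below are also given without both arrays.

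None of the 38 replication and mitosis genes differed between ErbB4-/- and control liver in a test across all genes. The count was 0 of 38 (limma, Benjamini-Hochberg adjusted p under 0.05), where 0.00451% of the 22180 genes passed, a single gene. At an unadjusted p under 0.05 the count was again 0 of 38, where 5.72% of all genes lay, 2.77% higher and 2.94% lower. Adjusted p of the 38 lay between 0.760 and 1.00. By sign 24 differences were negative and 14 positive, with a median of -0.040 on the log2 scale, beside a median of 0.015 over all genes, of which 44.8% were negative and 54.6% positive. The mean of the 38 log2 values was 4.845, 4.85 and 4.86 in ErbB4-/- replicates 1 to 3, against 4.89, 4.86 and 4.92 in control replicates 1 to 3. The averages were 4.85 ± 0.0097 and 4.89 ± 0.032 (SD, n = 3 each). The ranges overlapped, since ErbB4-/- replicate 3 lay above control replicate 2. Leaving out the pair of arrays that stood apart, the count stayed 0 of 38, with a median difference of -0.038 and 12 positive differences.

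In the model with genotype only, the arrays bound how large the difference of a single gene could be. The 95% confidence interval of the log2 difference stayed within 1.5-fold, or 0.58, for 36 of the 38 genes, a limit set after the values were seen. The exceptions were Mcm3, with an interval of -0.61 to 0.28, and Ube2c, with -0.63 to 0.12. Among the 15 genes that lay above the receptor background on every array, 14 stayed within this limit. The share of all genes within it was not counted. The median standard error was 0.082 over the 38 genes and 0.0997 over all genes, so narrow intervals are not particular to these genes. A probe set near background reports a compressed difference, so the bound covers the signal and not the transcript. Exact repeated values, described below, also enter the intervals, which may therefore be too narrow. Plk1, with the same value on 5 of 6 arrays, had a standard error of 0.043.

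**Figure D2:**
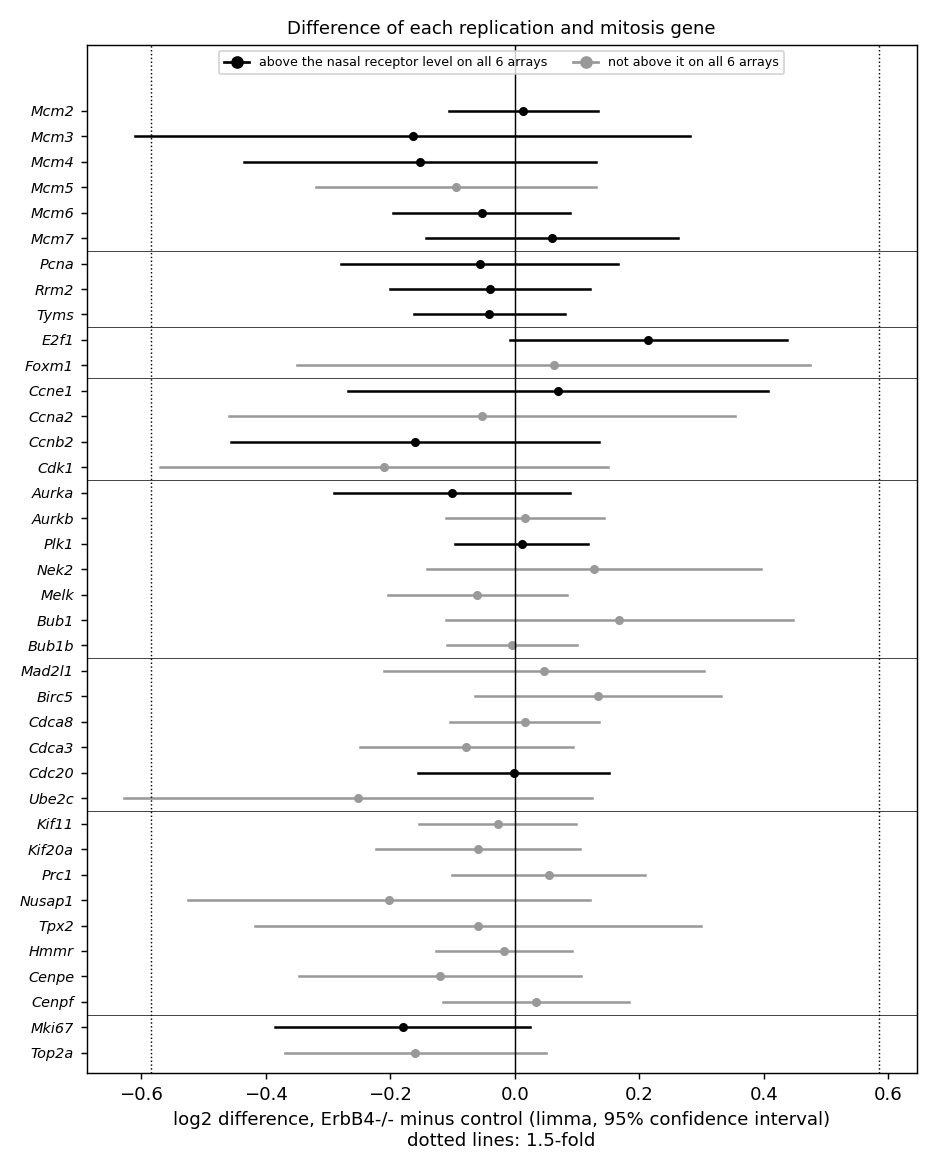
Log2 difference of each gene, ErbB4-/- minus control, with its 95% confidence interval from limma, in black for genes above the nasal receptor level on all 6 arrays and in grey for the others. Every interval includes 0, and 36 of 38 stay within the dotted lines at 1.5-fold.

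Absolute levels were read against a stand-in for background. The deposited table carries no background signal, so 1394 olfactory and vomeronasal receptor genes, which liver is not known to use, stood in for it. Their 95th percentile lay at 4.74, 4.86 and 4.88 in ErbB4-/- replicates 1 to 3 and at 4.84, 4.77 and 4.76 in control replicates 1 to 3. Of the 38 genes, 15 (39.5%) lay above it on all 6 arrays, 8 on some and 15 (39.5%) on none, beside 53.9% of all genes for all and 38% for none. The share above it on none was thus near that of all genes, while the share above it on all arrays was lower. At this stand-in the genes above background were 17, 16 and 17 on the ErbB4-/- arrays and 17, 17 and 21 on the control arrays. The number above background on all arrays was 27 of 38 with the 90th percentile and 38 of 38 with the median of the receptors, so the call depends on where the line is set. Probe sets differ in their response, so a level is set against this line and not against another gene's.

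**Figure D3:**
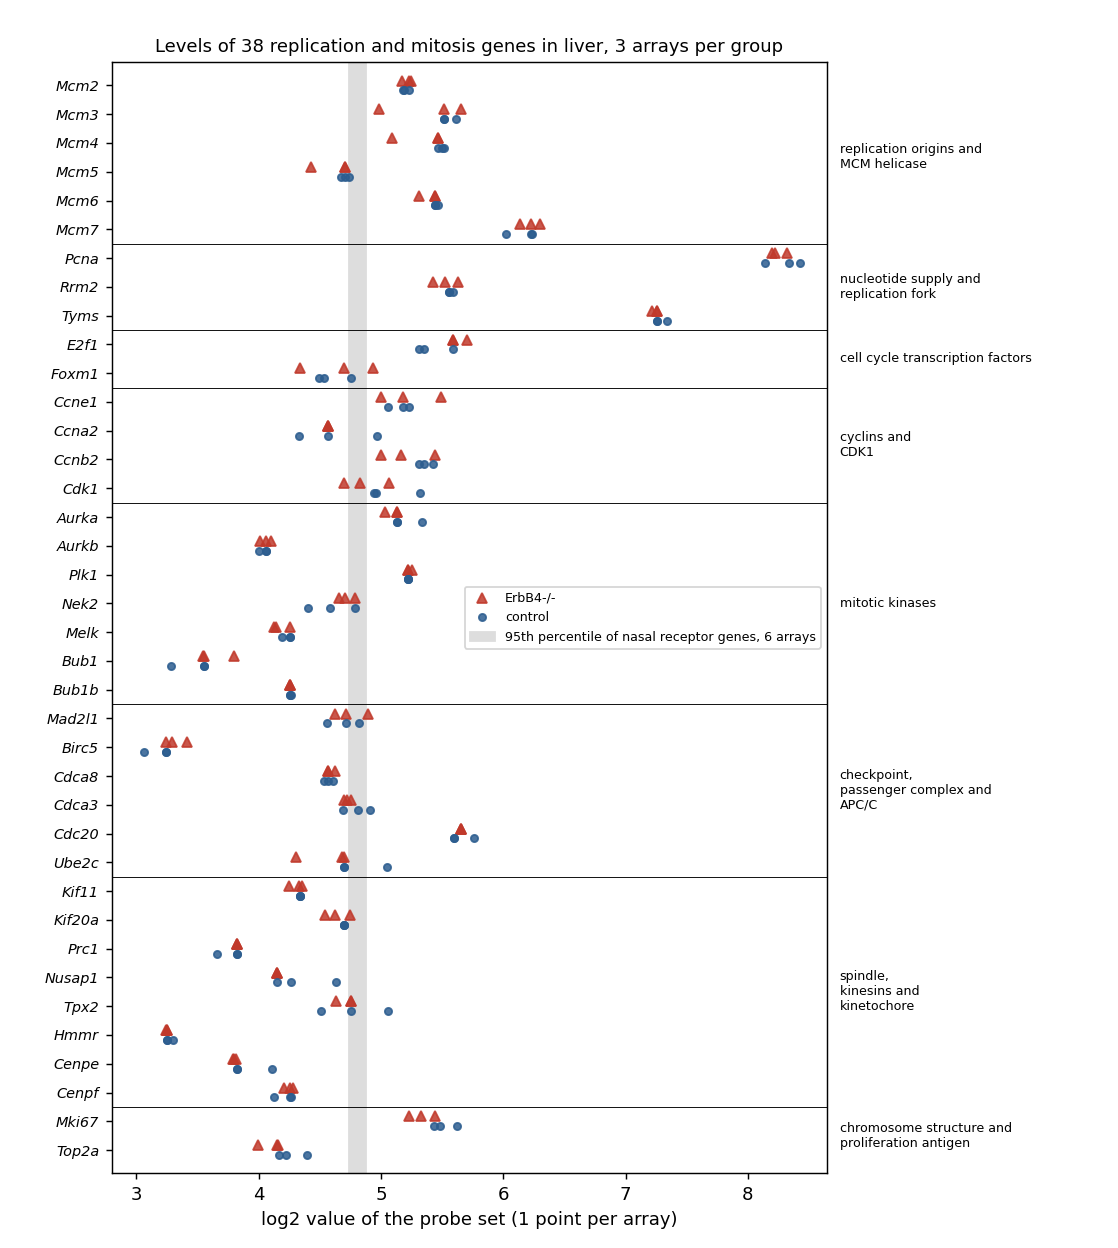
Log2 value of each gene on each array, with ErbB4-/- as red triangles above control as blue circles in every row, grouped by role. The grey band spans the 95th percentile of nasal receptor genes over the 6 arrays, 4.74 to 4.88. Pcna, Tyms and Mcm7 stand clear of it and most spindle and kinetochore genes lie below it.

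The helicase that unwinds DNA at replication origins is a ring of MCM proteins, whose genes are E2F targets. Of its 6 genes, 5 lay above the receptor background on all arrays and 0 passed the test. Mcm7 measured 6.30, 6.14 and 6.23 in ErbB4-/- replicates 1 to 3, against 6.03, 6.23 and 6.23 in control replicates 1 to 3. The groups overlapped and differed by 0.060 (standard error 0.081). Mcm3 measured 5.65, 5.51 and 4.98 in ErbB4-/- replicates 1 to 3, against 5.62, 5.51 and 5.51 in control replicates. One array, ErbB4-/- replicate 3, was low and the other 5 lay close together, with a difference of -0.16 (standard error 0.18, limma adjusted p = 0.802).

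Mcm4 and Mcm5, named after their values were seen, had the same low array. Mcm4 measured 5.46, 5.46 and 5.09 in ErbB4-/- liver, against 5.50, 5.46 and 5.51 in control liver. Mcm5 measured 4.71, 4.71 and 4.43 in ErbB4-/- liver, against 4.74, 4.71 and 4.67 in control liver, below the receptor line throughout. Without ErbB4-/- replicate 3 the differences were 0.036 for Mcm3, -0.028 for Mcm4 and -0.0015 for Mcm5. The other subunits did not follow, with Mcm2 at 5.23, 5.17 and 5.25 and Mcm6 at 5.45, 5.31 and 5.45 in ErbB4-/- replicates 1 to 3, against 5.18 to 5.23 and 5.45 to 5.47 in control liver. The endothelial list was also lowest on ErbB4-/- replicate 3, with a mean over its 10 markers of 7.07, against 8.33 and 7.72 in the other ErbB4-/- livers and 8.33 to 8.81 in control liver. The macrophage list of 13 had its lowest mean there too, 7.34, against 7.89 to 8.19 in the other ErbB4-/- livers and 8.55 to 8.85 in control liver. All markers of both lists lay above the receptor background on all 6 arrays, and their part in the MCM values was not tested.

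All 3 genes of the replication fork and of nucleotide supply lay above the receptor background on every array, and 0 passed the test. Pcna, the sliding clamp of DNA polymerase, which also serves in DNA repair, measured 8.22, 8.20 and 8.32 in ErbB4-/- replicates 1 to 3, against 8.14, 8.34 and 8.43 in control replicates. All ErbB4-/- values lay inside the control range, with a difference of -0.056 (interval -0.28 to 0.17). Without control replicate 1 and ErbB4-/- replicate 3 its difference was -0.18, at an unadjusted p of 0.0371 (limma, adjusted p = 0.746). Tyms, thymidylate synthase, measured 7.22, 7.26 and 7.26 in ErbB4-/- liver, against 7.34, 7.26 and 7.26 in control liver, a difference of -0.041. Rrm2, the S-phase subunit of ribonucleotide reductase, averaged 5.53 ± 0.10 in ErbB4-/- and 5.57 ± 0.020 in control liver (SD, n = 3 each).

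Of the transcription factors that drive the cycle, E2f1 had the smallest unadjusted p of the 38. E2f1, the founding activator of the E2F family, measured 5.59, 5.71 and 5.59 in ErbB4-/- replicates 1 to 3, against 5.35, 5.31 and 5.59 in control replicates 1 to 3. The groups were apart only by the third decimal, since control replicate 3 stood at 5.587 and the lowest ErbB4-/- value at 5.593. The difference of 0.21 (standard error 0.090) missed the threshold (limma, unadjusted p = 0.0565, adjusted p = 0.760). It was 0.30 without control replicate 3, at an unadjusted p of 0.00681 (limma, adjusted p = 0.851), and 0.038 once the labelled week entered the model. Foxm1, the forkhead factor of mitotic genes, measured 4.34, 4.70 and 4.93 in ErbB4-/- liver, against 4.53, 4.76 and 4.50 in control liver, wider apart within the groups than between them.

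Groups without overlap were counted for the whole set. They were 1 higher gene, E2f1, where 4.52% of all genes lay, and 2 lower genes, Top2a and Cenpe, where 3.81% of all genes lay. The 3 of 38 stand beside 8.33% of all genes for both directions, so the count is near the background.

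Cyclins set the phases by activating cyclin-dependent kinases, and 4 of the 6 genes of this group were measured. Ccne1, the cyclin of the entry into S phase, measured 5.18, 4.999 and 5.49 in ErbB4-/- liver, against 5.18, 5.23 and 5.06 in control liver. Ccnb2, a cyclin of mitotic entry, measured 5.16, 5.44 and 5.002 in ErbB4-/- liver, against 5.35, 5.43 and 5.31 in control liver, a difference of -0.16. Without ErbB4-/- replicate 2 the Ccnb2 difference was -0.28, at an unadjusted p of 0.0183 (limma, adjusted p = 0.698). Cdk1, the kinase of mitotic entry, measured 4.83, 5.07 and 4.70 in ErbB4-/- replicates 1 to 3, against 4.95, 4.96 and 5.32 in control replicates 1 to 3. Control replicate 3 was highest, and the difference of -0.21 became -0.087 without it. Ccna2, the cyclin of S phase and G2, stood at one repeated value of 4.57 in all ErbB4-/- livers and at 4.57, 4.33 and 4.97 in control liver, with control replicate 3 again highest.

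The mitotic kinases had 2 of 7 genes above the receptor background on all arrays. Plk1, the polo kinase of spindle assembly and exit from mitosis, measured 5.22, 5.22 and 5.26 in ErbB4-/- liver, against 5.22 on every control array. Aurka, the aurora kinase of the spindle poles, measured 5.13, 5.13 and 5.03 in ErbB4-/- liver, against 5.13, 5.13 and 5.34 in control liver. Its difference of -0.10 became -0.032 without control replicate 3. Bub1, a kinase of the spindle checkpoint, measured 3.55, 3.54 and 3.80 in ErbB4-/- liver, against 3.55, 3.55 and 3.28 in control liver, below the receptor line on every array. Aurkb, the kinase of the chromosomal passenger complex, Melk and Bub1b stayed below that line on every array too, with differences of 0.016, -0.060 and -0.0038. Nek2, a kinase of centrosome separation, averaged 4.72 ± 0.066 in ErbB4-/- and 4.59 ± 0.19 in control liver (SD, n = 3 each).

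Genes of the checkpoint, the passenger complex and protein destruction in mitosis had 1 of 6 above the receptor line on all arrays and 2 of 6 above it on none, and 0 passed. Cdc20, the activator of the anaphase-promoting complex, was that one and measured 5.65 in each ErbB4-/- liver, against 5.76, 5.60 and 5.60 in control liver. Ube2c, the ubiquitin-conjugating enzyme of that complex, had the largest negative difference of the 38. It measured 4.68, 4.31 and 4.70 in ErbB4-/- liver, against 4.70, 4.70 and 5.05 in control liver, a log2 difference of -0.25 (standard error 0.15, limma adjusted p = 0.760). The low value came from ErbB4-/- replicate 2 and the high one from control replicate 3, and the difference was -0.12 without the first and -0.14 without the second. Birc5, survivin of the passenger complex, measured 3.24, 3.29 and 3.42 in ErbB4-/- liver, against 3.06, 3.24 and 3.24 in control liver, far below the receptor line. Cdca3, which promotes degradation of a mitotic inhibitor, measured 4.70, 4.73 and 4.76 in ErbB4-/- liver, against 4.69, 4.81 and 4.91 in control liver. Mad2l1, the checkpoint protein MAD2, and Cdca8, borealin, differed by 0.047 and 0.016.

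Spindle and kinetochore genes had 0 of 8 above the receptor line on all arrays and 7 of 8 above it on none. The exception was Tpx2, a spindle assembly factor that activates aurora kinase A, with 4.75, 4.63 and 4.75 in ErbB4-/- liver, against 5.06, 4.51 and 4.75 in control liver. Nusap1, which binds spindle microtubules, stood at 4.15 in each ErbB4-/- liver, against 4.63, 4.27 and 4.15 in control liver. The high array for both was control replicate 1, and without it the differences were 0.083 for Tpx2 and -0.060 for Nusap1, beside -0.059 and -0.20 with it. Kif20a, a kinesin of cytokinesis, measured 4.54, 4.75 and 4.62 in ErbB4-/- liver, against one repeated value of 4.70 in control liver. Cenpe, the kinetochore kinesin, measured 3.80, 3.79 and 3.81 in ErbB4-/- liver, against 3.82, 3.82 and 4.11 in control liver. Its groups did not overlap, with 3.81 and 3.82 as the nearest values, and the difference of -0.12 became -0.025 without control replicate 3. The motor gene Kif11, the bundling protein gene Prc1, the hyaluronan receptor gene Hmmr and the kinetochore gene Cenpf differed by -0.028, 0.054, -0.018 and 0.034.

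The proliferation antigen Ki-67 and topoisomerase II alpha are the usual tissue marks of cycling cells. Mki67 measured 5.23, 5.44 and 5.33 in ErbB4-/- replicates 1 to 3, against 5.62, 5.43 and 5.48 in control replicates 1 to 3. The groups overlapped by one array, and the difference of -0.18 (standard error 0.082) missed the threshold (limma, unadjusted p = 0.0746, adjusted p = 0.760). It kept its sign in every setting tried, between -0.23 and -0.12, and was largest without ErbB4-/- replicate 2, at an unadjusted p of 0.0403 (limma, adjusted p = 0.698). Top2a, which untangles sister chromosomes, measured 3.996, 4.16 and 4.15 in ErbB4-/- replicates 1 to 3, against 4.39, 4.16 and 4.23 in control replicates 1 to 3. Its groups did not overlap, with 4.161 in ErbB4-/- replicate 2 and 4.164 in control replicate 2 as the nearest values, its values lay below the receptor line on all arrays, and the difference of -0.16 did not pass (adjusted p = 0.760). Without control replicate 1 the differences were -0.12 for Mki67 and -0.094 for Top2a.

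The high control arrays of these genes were also high in neutrophil and marrow myeloid genes, a compartment that includes dividing precursors. The list of 13 had means of 4.98, 5.001 and 5.34 in ErbB4-/- replicates 1 to 3, against 7.55, 5.54 and 7.06 in control replicates 1 to 3. All 13 were lower in ErbB4-/- liver, and 0 passed the limma test across all genes. An unadjusted p under 0.05 was reached by 10, where 2.94% of all genes lay lower. Of the list, 6 lay above the receptor line on all arrays, and 1, the defining marker Ly6g, lay below it on all, with 3.13, 2.90 and 3.31 in ErbB4-/- liver, against 4.41, 3.68 and 4.76 in control liver. The mean over the replication and mitosis genes was likewise higher in control replicates 3 and 1 than on the other 4 arrays, at 4.92 and 4.89, against 4.845 to 4.86. The 27 mitosis genes among them had this order, at 4.54 and 4.51, against 4.43 to 4.49. The 11 S-phase genes did not. They stood at 5.859 and 5.835 in control replicates 3 and 1, against 5.841 in control replicate 2 and 5.793 to 5.867 in ErbB4-/- liver. Control replicates 1 and 3 gave the highest value for 11 and 9 of the 38 genes, beside 19.2% and 12.8% of all genes, and ErbB4-/- replicate 3 for 11 of the 38, beside 23.6%. Control replicate 2 was credited with 0 of the 38, beside 12.99% of all genes. In these counts a tied highest value went to the first array, with control replicates 1 to 3 before ErbB4-/- replicates 1 to 3. Ties thus add to control replicate 1, as for Melk, whose highest value of 4.255 also stood on control replicate 2 and ErbB4-/- replicate 3. The 2 further lists of cycle genes described below did not fully share the order of the mean over the 38 genes. The other S-phase genes had their lowest mean in control replicate 1, 5.300, and stood at 5.309 in control replicate 3, against 5.306 to 5.340 in ErbB4-/- liver. The other mitosis genes stood at 4.568 and 4.553 in control replicates 1 and 3, against 4.568 and 4.566 in ErbB4-/- replicates 1 and 3. They were lower in ErbB4-/- replicate 2 and control replicate 2, at 4.54 and 4.52, so this list shared the order in part. The part of the neutrophil genes in these values was not tested.

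**Figure D4:**
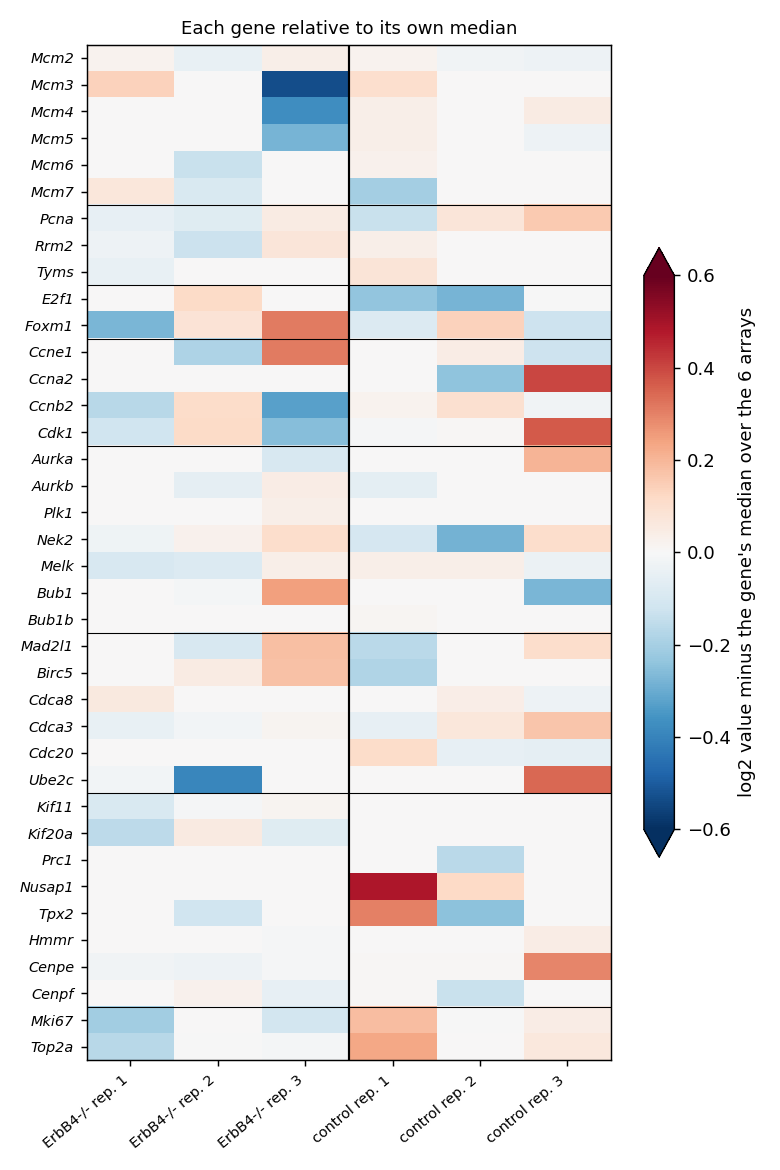
Each gene's log2 value minus its own median over the 6 arrays, with ErbB4-/- arrays left of control arrays. No column is red or blue throughout: Mcm3, Mcm4 and Mcm5 are low in ErbB4-/- replicate 3, Ccna2, Cdk1, Ube2c and Cenpe are high in control replicate 3, and Nusap1 and Tpx2 are high in control replicate 1.

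Other genes of both phases were read from 2 further lists. Of 44 other S-phase genes 0 passed in either direction, 0 had an unadjusted p under 0.05, and the median difference was -0.0077, with 21 positive and 23 negative. The smallest p belonged to Gins4, a subunit of the replicative helicase, at 7.70, 7.35 and 7.56 in ErbB4-/- liver, against 7.23, 7.36 and 7.36 in control liver. Gmnn, the licensing inhibitor geminin, differed by 0.16 and Dbf4, the activator of the CDC7 kinase, by -0.30. Of 57 other mitosis genes 0 passed, and the median difference was 0.023, with 32 positive and 25 negative. An unadjusted p under 0.05 was reached by 1, where 5.72% of all genes lay. That gene was Shcbp1, which takes part in cytokinesis, at 3.56, 3.43 and 3.33 in ErbB4-/- liver, against 3.64, 3.64 and 3.74 in control liver (limma, unadjusted p = 0.0239, adjusted p = 0.760), below the receptor line on all arrays. Cenpa, the centromeric histone H3 variant, measured 5.64, 5.52 and 5.43 in ErbB4-/- liver, against 5.20, 5.42 and 5.35 in control liver, and Ndc80, of the outer kinetochore, differed by 0.20.

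Means over these lists differed by less than their spread between arrays. The other S-phase genes averaged 5.32 ± 0.019 in ErbB4-/- and 5.31 ± 0.018 in control liver (SD, n = 3 each). The other mitosis genes averaged 4.56 ± 0.014 in ErbB4-/- and 4.55 ± 0.024 in control liver. Above the receptor line on all arrays were 27 of the 44 other S-phase genes and 13 of the 57 other mitosis genes.

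**Figure D5:**
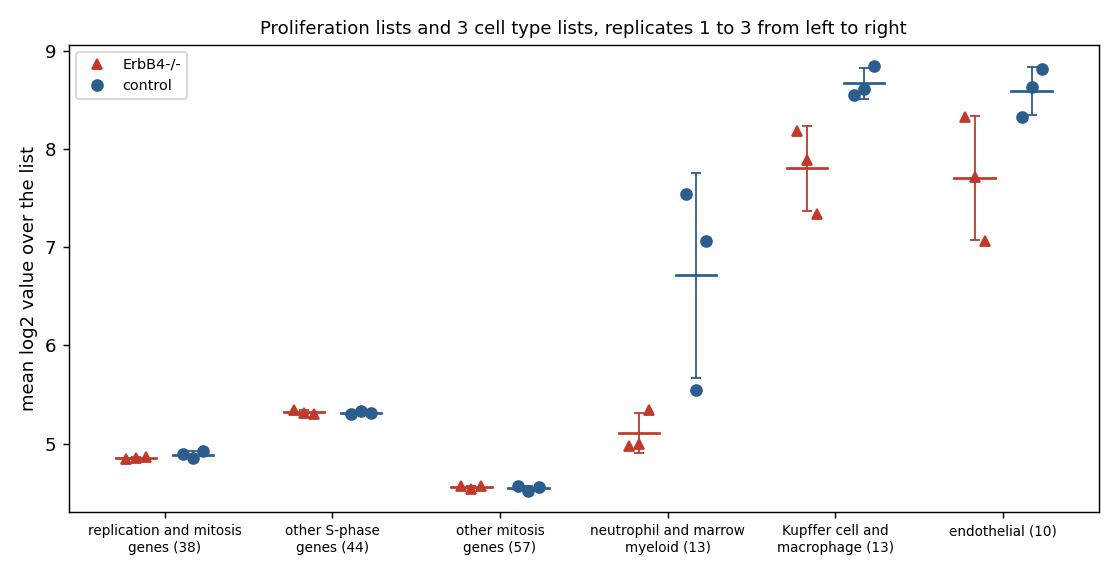
Mean log2 value over 3 proliferation lists and 3 cell type lists for each array, with the bar at the group mean and whiskers of 1 SD (n = 3), ErbB4-/- left of control. Each proliferation list varies by less than 0.1 across the 6 arrays, while the neutrophil list runs from 4.98 to 5.34 in ErbB4-/- and from 5.54 to 7.55 in control liver.

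Many of the genes carry exactly the same deposited value on several arrays. At least 1 value was repeated in 30 of the 38 genes, or 78.9%, beside 57.5% of all genes, and a value was shared by 3 or more arrays in 22 of them, or 57.9%, beside 30.9%. Plk1, Bub1b and Prc1 had the same value on 5 of 6 arrays. Ccna2, Cdc20 and Nusap1 had 1 value on all 3 ErbB4-/- arrays, and so an SD of 0 there. What produced the repeated values was not tested. Among the 8 genes whose 6 values all differ, 0 passed and the median difference was -0.12, with 2 positive, in a fit of such genes only that was added after the data were seen.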

How the data were processed

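Liver RNA of 6 mice was measured on single-colour whole-transcript arrays. The authors deposited log2 values, 1 per probe set and array. Their background correction, normalization and summarisation are not given in the sources used here, and the log2 scale was inferred from the range, which runs from 1.74 to 14.4. Of 41345 probe sets, 23521 had 1 gene symbol in the platform annotation, 1814 had several and 16010 were unnamed here. Per gene the probe set with the highest mean was kept, which left 22180 genes, and no filter on dim genes was applied.

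The linear model of limma 3.58.1 (R 4.3.3) gave two-sided tests of ErbB4-/- minus control over all genes, with empirical Bayes variances and p-values adjusted by the Benjamini-Hochberg method over 22180 genes at 0.05. An exact permutation of 3 against 3 arrays cannot go below 0.10 and was not used. The number of arrays limits the precision, with a median standard error of 0.0997. The replicates are separate mice, per the design text. The fit was tested on simulated data for ErbB4-/- against control with 22180 genes, 200 of them changed. It recovered 32.5% at a log2 change of 0.58, 71% at 1 and 97.5% at 3. At a change of 1 it made 12 false calls beside 142 recovered. With 200 genes changed the adjusted threshold is easier to reach than in the real data, where 1 gene passed. These shares can therefore overstate what could be found here.

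The genes and lists were chosen with earlier results of these data known. Values on every array are given for the 2 genes of each role with the highest mean and the 8 genes with the smallest p, and up to 3 genes of smallest p for the S-phase and mitosis lists. Named outside this rule, after their values were seen, were Mcm2, Mcm4, Mcm5, Mcm6, Ccna2, Cenpe and the marker genes. Alternatives covered normalization, filters, probe set summary, prior, array weights, replicate block, week of dissection, left-out arrays and the threshold. Further lists fixed for cell types served only as checks, and figures were drawn with matplotlib 3.10.9 under Python 3.11.15.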

Additional observations from a re-analysis of the deposited data

How the results depend on the processing

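The count of replication and mitosis genes past the threshold was 0 under every setting run, and the smallest adjusted p of any of them was 0.645. The median difference was -0.12 among genes with 6 distinct values. Otherwise it stayed within 0.032 of its main value of -0.040. That tolerance is the SD between control arrays of the mean over the 38 genes, and is not much smaller than the median itself. Without each array in turn it ran from -0.049 to -0.019. Over all genes 1 passed, and 0 did with every row of the table, the replicate block, the week as a covariate, without both control replicate 1 and ErbB4-/- replicate 3, or without any 1 array (0 to 0). The same numbers did not pair the mice, as deviations correlated at -0.10, 0.034 and -0.050 for numbers 1 to 3, and the block changed no call among the 38 genes, with a median of -0.040. Above background on all arrays were 27 genes with the 90th percentile and 38 with the median of the receptors. Differences kept their sign in all settings for 15 genes, were 0 without control replicate 2 for Prc1, and turned in at least 1 setting for 22, none of which passed. With the week they turned to 0.41 for Mcm3, 0.12 for Mcm4, 0.16 for Mcm5, -0.046 for Mcm7, -0.35 for Foxm1, -0.068 for Ccne1, -0.061 for Aurkb, -0.014 for Plk1, -0.12 for Nek2, 0.0048 for Bub1b, -0.29 for Mad2l1, -0.13 for Birc5, 0.12 for Cdc20, 0.16 for Nusap1 and 0.17 for Tpx2. Without control replicate 1 and ErbB4-/- replicate 3 they turned to 0.069 for Mcm3, 0.015 for Mcm5, -0.013 for Mcm7, -0.10 for Foxm1, -0.050 for Ccne1, -0.027 for Aurkb, -0.10 for Mad2l1, 0.052 for Cdc20 and 0.063 for Tpx2. With array weights they turned to -0.00017 for Foxm1, -0.00093 for Aurkb, -0.013 for Mad2l1 and 0.013 for Cdc20, with quantile normalization to -0.00067 for Aurkb and 0.013 for Cdc20, and with median centring to 0.0026 for Bub1b and 0.0049 for Cdc20. Over these settings without 1 or both arrays the differences that turned ran from -0.0016 to 0.037 for Mcm2, -0.30 to 0.069 for Mcm3, -0.14 to 0.015 for Mcm5, -0.013 to 0.10 for Mcm7, -0.18 to 0.0067 for Pcna, -0.090 to 0.0098 for Rrm2, -0.10 to 0.22 for Foxm1, -0.064 to 0.18 for Ccne1, -0.20 to 0.12 for Ccna2, -0.027 to 0.042 for Aurkb, -0.10 to 0.11 for Mad2l1, -0.0030 to 0.034 for Cdca8, -0.029 to 0.052 for Cdc20, -0.049 to 0.0052 for Kif11, -0.19 to 0.083 for Tpx2 and -0.011 to 0.080 for Cenpf. The cause was not tested. Signal near background limits what these probe sets can show.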

Other observations

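Of 10 measured markers of liver tumours and of fetal-type hepatocytes, Afp, Gpc3 and Tff3 each had 1 high array. Afp, alpha-fetoprotein, measured 6.67, 5.21 and 5.26 in ErbB4-/- replicates 1 to 3, against 4.86, 5.06 and 5.29 in control replicates 1 to 3. Gpc3, the surface proteoglycan glypican 3, measured 5.11, 4.20 and 4.29 in ErbB4-/- liver, against 4.14, 4.23 and 3.93 in control liver. Afp and Gpc3 were both highest in ErbB4-/- replicate 1, and neither passed (limma, adjusted p = 0.760 each). On that array the mean over the replication and mitosis genes was 4.845, the lowest of the 6 but close to 4.854 in ErbB4-/- replicate 2. Only the 27 mitosis genes among them were lowest there, at 4.43. The 11 S-phase genes had their highest mean on that array, 5.87, as did the other S-phase genes, at 5.34. Mki67 and Top2a were at their lowest values there, 5.23 and 3.996. The trefoil peptide gene Tff3 differed by 0.45 and was highest in ErbB4-/- replicate 3, at 9.40, against 8.08 to 8.73 on the other arrays. The adhesion receptor gene Cd44 differed by -0.30 and was highest in control replicate 1, at 6.16. Afp was named after its values were seen.

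E2f8, an atypical E2F repressor known in mouse liver for its role in polyploidy, measured 6.29, 6.23 and 6.22 in ErbB4-/- liver, against 5.71, 6.17 and 6.18 in control liver. Among 44 other S-phase genes it alone had no overlap upwards, where 4.52% of all genes lay, and it did not pass (limma, adjusted p = 0.760). Mcm10, a replication initiation factor, had the largest difference of that list, 0.40, with 6.57, 6.55 and 7.35 in ErbB4-/- liver, against 5.98, 6.71 and 6.57 in control liver. Both were named after their values were seen.

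Erythroid markers, another source of dividing cells in liver, were measured by 3 of 10 genes, with list means of 4.68 to 4.92 in ErbB4-/- and 4.795 to 4.80 in control liver. T and NK cell markers had means of 4.56 to 4.62 in ErbB4-/- and 4.57 to 4.76 in control liver, B and plasma cell markers 6.00 to 6.37 and 6.40 to 6.59, and stellate markers 7.07 to 7.65 and 7.53 to 7.64. Cholangiocyte markers lay at 4.49 to 4.61 and 4.49 to 4.58. None of these lists had a gene that passed.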
